A study of Mus musculus with 7 samples.

Results

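The 13 protein-coding genes of the mouse mitochondrial chromosome were followed through bulk RNA-seq of the medial amygdala, a limbic nucleus that takes part in chemosensory and social behaviour. The members are every gene placed on chromosome MT that has a complete set of raw counts. There are 13 of them among 49164 genes with complete counts, and 13 of the 37 genes listed on chromosome MT. The other genes on MT, 2 ribosomal and 22 transfer RNA genes, carry no values in the table and were not analysed here. Each library came from 1 mouse: 4 males and 3 females of the genotype Trap-Ai9 (TRAP2-Ai9 in the series' design text), all killed at 2 months. In such mice tamoxifen lets cells in which the Fos gene is active acquire a lasting red fluorescence. The males received oral tamoxifen at postnatal day 24 and the females at 6 weeks, per the sample labels, while the design text names day 24 for the series as a whole. Sex and age at tamoxifen therefore cannot be told apart, nor can the interval from tamoxifen to death, and all animals carried the transgenes and the drug. Tissue holding the fluorescent area, which the submitters call DIMPLE without spelling the name out, was dissected from both hemispheres. DIMPLE made up 40%, 18%, 32% and 29% of the piece in male replicates 1 to 4 and 25%, 20% and 20% in female replicates 1 to 3.

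Mitochondria keep a small circular genome of their own, transcribed from both strands into long precursors that are cut at the transfer RNAs into mRNAs and ribosomal RNAs. Its mRNAs encode core subunits of the respiratory chain and ATP synthase, which are assembled with many nuclear-encoded subunits and supply much of the ATP that neurons use. Copies of mitochondrial DNA have also been inserted into the nuclear chromosomes over evolution, so that reads from a mitochondrial mRNA can match a nuclear gene as well.

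Most of the genes encode subunits of complex I, the NADH dehydrogenase: mt-Nd1, mt-Nd2, mt-Nd3, mt-Nd4l, mt-Nd4, mt-Nd5 and mt-Nd6. The gene mt-Cytb encodes cytochrome b of complex III. The genes mt-Co1, mt-Co2 and mt-Co3 encode the catalytic core of complex IV, cytochrome c oxidase, and mt-Atp6 and mt-Atp8 encode membrane subunits of complex V, ATP synthase. In GRCm39, the build of the table's coordinates, they run from mt-Nd1 (MT, 2751 to 3707) to mt-Cytb (MT, 14145 to 15288). All lie on the plus strand except mt-Nd6 (MT, 13552 to 14070), which is read from the minus strand. Neighbours overlap in 4 places, by 43 bp between mt-Atp8 and mt-Atp6, 1 bp between mt-Atp6 and mt-Co3, 7 bp between mt-Nd4l and mt-Nd4 and 14 bp between mt-Nd5 and mt-Nd6. The strand setting of the counting is not given in the sources used here, so reads of mt-Nd6 and antisense reads from the opposite strand cannot be told apart.

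The sequences were searched against 141730 annotated mouse transcripts outside MT, because the levels of genes with and without such matches differed. The transcripts are those of GENCODE M21. For mt-Co2, mt-Atp6, mt-Co3, mt-Nd3 and mt-Nd4l, the annotation holds a copy of nearly the whole gene on chromosome 1. Every base of mt-Nd4l is shown here, 5′ to 3′, because only its stop codon, in capitals, lies outside the annotated ends of Gm10222. The copy of mt-Nd4, Gm28439, matches from the first base of mt-Nd4. It therefore holds the 7 bp that mt-Nd4l shares with mt-Nd4, the stop codon included.
mt-Nd4l: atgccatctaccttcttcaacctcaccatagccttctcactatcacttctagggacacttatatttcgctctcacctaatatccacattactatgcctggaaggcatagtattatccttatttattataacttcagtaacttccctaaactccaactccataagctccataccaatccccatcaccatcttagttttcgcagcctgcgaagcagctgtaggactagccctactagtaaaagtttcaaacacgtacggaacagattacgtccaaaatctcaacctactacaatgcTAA
The neighbour that overlaps mt-Atp6, mt-Atp8, had no 50-base window with an exact copy in an annotated transcript. The sequence between the chromosome 1 copies of mt-Co2 and mt-Atp6, where mt-Atp8 would have its place, was not searched. Capitals in the sequence of mt-Atp8 mark the 43 bases it shares with mt-Atp6.
mt-Atp8: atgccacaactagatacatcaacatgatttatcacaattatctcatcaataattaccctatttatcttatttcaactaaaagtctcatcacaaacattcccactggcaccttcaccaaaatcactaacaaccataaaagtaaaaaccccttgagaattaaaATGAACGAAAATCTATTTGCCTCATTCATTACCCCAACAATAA
The next stretches show how little separates some members from their copies. Positions are counted from 1 at the 5′ end of the mitochondrial gene, and capitals mark the bases that differ. The first 60 bases of mt-Nd3 hold the single mismatch to its copy Gm28438, T3C.
mt-Nd3: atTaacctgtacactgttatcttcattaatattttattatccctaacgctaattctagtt
Gm28438: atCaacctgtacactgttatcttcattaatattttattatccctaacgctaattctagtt
Within mt-Co1, positions 1063 to 1122 differ from Gm29216 on chromosome 1 at A1066T and from Gm13340 on chromosome 2 at T1072C.
mt-Co1: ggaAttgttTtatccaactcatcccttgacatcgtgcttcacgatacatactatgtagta
Gm29216: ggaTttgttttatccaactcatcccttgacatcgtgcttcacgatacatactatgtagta
Gm13340: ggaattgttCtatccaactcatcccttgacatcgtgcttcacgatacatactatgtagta
The most similar annotated copy of mt-Cytb, Gm11410 on chromosome 4, was 92.9% identical over 1142 aligned bases. In positions 2 to 61 it differs at G14A, C24T and C61T.
mt-Cytb: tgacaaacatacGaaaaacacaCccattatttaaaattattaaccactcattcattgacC
Gm11410: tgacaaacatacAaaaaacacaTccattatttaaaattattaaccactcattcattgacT

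The annotated match of highest alignment score differed widely between members. The copies of mt-Co2 (Gm28661, 681 bases aligned), mt-Atp6 (Gm10925, 678), mt-Co3 (Gm28437, 783) and mt-Nd4l (Gm10222, 294) were 100% identical to the mitochondrial gene. The copy of mt-Nd4 (Gm28439, 876 bases) was also 100% identical but covered 63.6% of the gene. For mt-Co1 the full-length match Gm13340 had 37 mismatches over 1545 bases, and Gm29216 had 1 mismatch over 483 bases. The matches of highest score for mt-Nd6 (Gm11408, 93.6% identical over 519 bases), mt-Nd5 (Gm11407, 92.3% over 1058) and mt-Nd2 (Gm13339, 96.7% over 510) were less alike, and a shorter match of mt-Nd5, Gm4076, was 95.2% identical over 954 bases. Those of mt-Atp8 (Gm28925, 81.4% over 167) and mt-Nd1 (Gm11834, 76.6% over 509) had the lowest identity, and a shorter match of mt-Nd1, Gm48258, was 83.6% identical over 311 bases. On chromosome 1, 7 of these copies (Gm29216, Gm28661, Gm10925, Gm28437, Gm28438, Gm10222 and Gm28439) lie in 1 block, chr1:24650616-24655278 on the minus strand of GRCm39. They stand there in the order of their partners mt-Co1, mt-Co2, mt-Atp6, mt-Co3, mt-Nd3, mt-Nd4l and mt-Nd4 on MT. Between Gm28661 and Gm10925 there are 233 bases with no annotated gene of this set, against the 230 bases that separate mt-Co2 from mt-Atp6. The place of mt-Atp8 on MT is between mt-Co2 and mt-Atp6, and the sequence between the nuclear genes was not searched.

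The smallest library was male replicate 1, with 29049604 counts, and the largest was male replicate 3, with 46494588. All 13 members passed the filter on low counts. Markers of neurons, astrocytes, oligodendrocytes, microglia and blood vessels were all detected, and no marker gene was at 0 in any library. The summed level of 5 pan-neuronal markers was 2329 to 3154 CPM (counts relative to the scaled total count of the library) in males and 2261 to 2681 CPM in females. The libraries differed in neighbouring tissue: 4 choroid plexus and ependyma markers summed to 14360 CPM in male replicate 3 and to between 36.7 and 317 CPM in the other libraries. Male replicate 3 also had the highest sum of 5 myelin markers, 8559 CPM against 1319 to 3595 CPM elsewhere. Male replicate 1 had the lowest sum of 3 GABAergic markers, 773 CPM against 816 to 1797 CPM elsewhere. In bulk tissue, fewer cells of a type and less RNA per cell cannot be told apart.

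Mitochondrial mRNAs took 5.74% of all counts in male replicate 1, 2.88% in male replicate 2, 2.24% in male replicate 3 and 2.61% in male replicate 4. They took 2.78%, 2.30% and 2.84% in female replicates 1 to 3. Male replicate 1 stood apart at 1.99 times the highest other library, and the remaining males lay within the range of the females or just outside it. The mean share was 3.37 ± 1.60% in males (SD, n = 4) and 2.64 ± 0.298% in females (SD, n = 3), and the groups overlapped. Without male replicate 1 the male mean was 2.58 ± 0.322% (SD, n = 3). The 95% Wilson intervals were at most 0.0169 percentage points wide, so counting error was far smaller than the spread between animals. Such intervals cover counting error only. Male replicate 1 also had the lowest total count and the highest percent DIMPLE, and their part in its share was not tested.

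**Figure D1:**
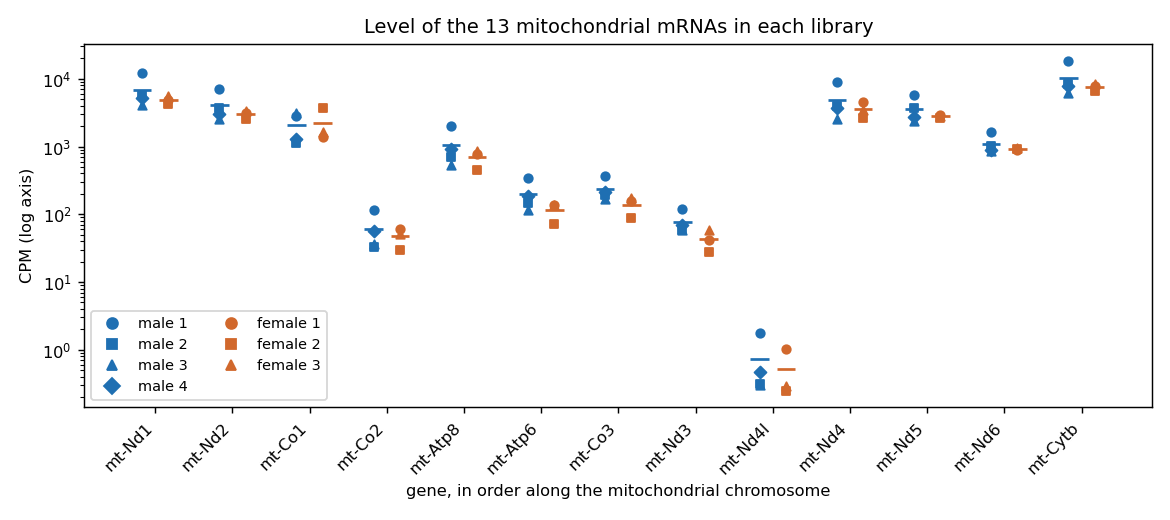
CPM of the 13 mitochondrial mRNAs (log axis) in 4 male and 3 female libraries, in order along the mitochondrial chromosome. Points are single libraries and short lines are group means. Male replicate 1 (blue circle) is the highest point for 12 of the 13 genes, and mt-Nd4l lies far below the rest.

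The most abundant members, also per length of gene, were mt-Cytb and mt-Nd1. For mt-Cytb the CPM, scaled by trimmed mean of M values (TMM), were 18577, 8444, 6058 and 7722 in males and 7837, 6564 and 8297 in females. For mt-Nd1 they were 12064, 5736, 4113 and 5130 in males and 4854, 4267 and 5509 in females. Male replicate 1 was highest for both genes, male replicate 3 was lowest, and the groups overlapped. Together with other complex I genes they made up most of the mitochondrial counts: mt-Cytb took 26.8% to 31.0% and mt-Nd1 17.8% to 20.1% of the mRNA sum in every library.

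The other complex I genes covered a wide range. For mt-Nd4 the CPM were 8974, 3998, 2567 and 3708 in males and 4502, 2650 and 3483 in females. For mt-Nd2 they were 7145, 3691, 2547 and 3051 in males and 3107, 2527 and 3391 in females. For mt-Nd5 they were 5730, 3682, 2410 and 2692 in males and 2889, 2652 and 2830 in females. In all of these genes male replicate 1 was high and the rest of the males overlapped the females. The light-strand gene mt-Nd6 was the least variable of all members in CPM, at 1641, 1005, 862 and 873 CPM in males and 903, 927 and 936 CPM in females. Its coefficient of variation over the 7 libraries was 27.2%, against 35.4% to 90.8% for the other members. The subunit gene mt-Nd3 stood at 121, 58.3, 59.6 and 70.4 CPM in males and 41.6, 27.7 and 58.9 CPM in females. Of the females only female replicate 3 reached the lower males. With the fewest counts of all members, mt-Nd4l had 50, 12, 14 and 19 counts in males and 48, 8 and 14 counts in females, or 0.248 to 1.80 CPM.

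The genes of complexes IV and V covered a wide range as well. For mt-Co2 the CPM were 114, 33.1, 35.9 and 57.3 in males and 60.3, 29.4 and 51.4 in females. For mt-Co3 they were 363, 191, 170 and 215 in males and 158, 87.6 and 172 in females. In both genes the groups overlapped, with female replicate 2 the lowest library in each gene. For mt-Atp8 they were 2001, 691, 527 and 927 in males and 769, 454 and 847 in females. For mt-Atp6 they were 338, 148, 117 and 188 in males and 136, 71.7 and 135 in females. Female replicate 2 was again lowest, and male replicate 3 was the only male below the 2 higher females in mt-Atp6.

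Compared per length of gene, the members with near-complete nuclear copies were the lowest. This difference had prompted the search for copies, so the values below describe it and are no test of it. For each member, all 50-base windows were searched for exact copies in the annotated nuclear transcripts, and the level was expressed as CPM per kb of gene. Among the 6 members with few or no such windows, the mean over 7 libraries was 7929 CPM per kb for mt-Cytb, 6221 for mt-Nd1, 4353 for mt-Atp8, 3504 for mt-Nd2, 1967 for mt-Nd6 and 1792 for mt-Nd5. In these genes 0% to 8.19% of windows had an exact copy in an annotated transcript. With up to 2 mismatches allowed, the share was 51.1% for mt-Nd6, 37.7% for mt-Nd2, 32.2% for mt-Nd5 and 23.3% for mt-Cytb. It stayed at 0% for mt-Nd1 and mt-Atp8. Unannotated copies, such as one of mt-Atp8, were not searched for. Where exact copies were partial, mt-Nd4 (62.2% of windows) stood at 3098 CPM per kb and mt-Co1 (51.1%) at 1396. With up to 2 mismatches, 94.8% of the windows of mt-Co1 had a copy, while mt-Nd4 stayed at 62.2%. The 5 members with at least 98.0% of windows copied stood at 247 CPM per kb for mt-Co3, 238 for mt-Atp6, 179 for mt-Nd3, 79.7 for mt-Co2 and 2.15 for mt-Nd4l. No library of these 5 exceeded 497 CPM per kb, and no library of the other 8 fell below 719. In the order of mean levels per kb the ranges of neighbouring genes over the 7 libraries overlapped, except between mt-Co1 and mt-Co3 and between mt-Co2 and mt-Nd4l. Across the 13 genes the Spearman correlation of level with the share of exactly copied windows was −0.84, and none was computed with mismatches allowed. It is a description over genes that share libraries and neighbours and are no independent replicates. How the authors' counting treated reads with several matching places is not given in the sources used here, and its part in these levels was not tested.

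**Figure D2:**
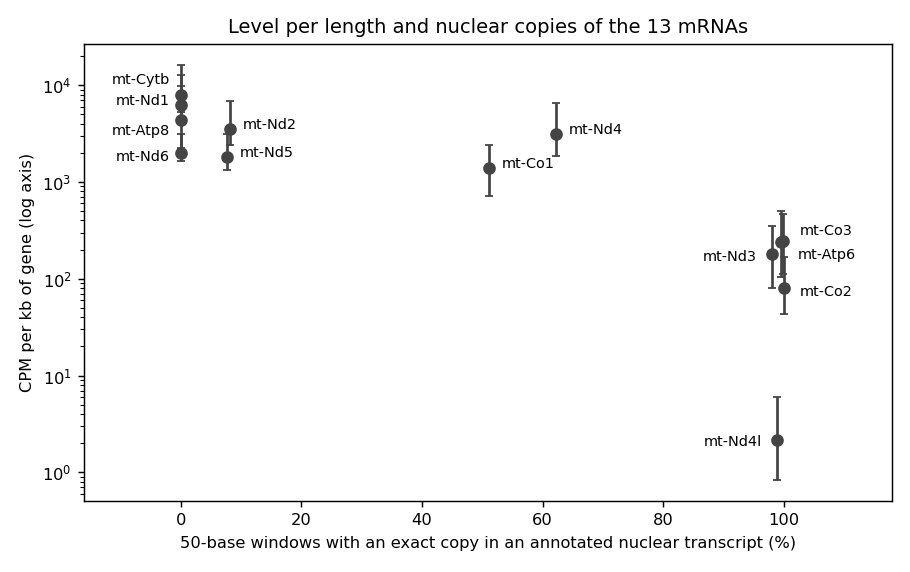
Mean CPM per kb of gene over 7 libraries (log axis) against the percent of 50-base windows with an exact copy in an annotated nuclear transcript, 1 point for each of the 13 genes. Bars run from the lowest to the highest library. The 5 genes at the right edge lie at or under 247 CPM per kb, while the other 8 lie at 1396 or more.

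In 2 overlapping pairs, mt-Atp8 with mt-Atp6 and mt-Nd4 with mt-Nd4l, the genes fall on opposite sides of this divide. Only annotated copies were searched for it. Each of these 2 pairs is known to be carried on a single mRNA. The overlapping neighbours mt-Atp6 and mt-Co3 fall on the same side, as do mt-Nd5 and mt-Nd6. The level per kb of mt-Atp8 was 19.7, 15.6, 15.1 and 16.4 times that of mt-Atp6 in males and 18.9, 21.1 and 20.9 times in females. The ratio averaged 16.7 ± 2.10 in males (SD, n = 4) and 20.3 ± 1.22 in females (SD, n = 3), and the groups overlapped through male replicate 1. For the other pair, mt-Nd4 was 1078, 2736, 1820 and 1710 times mt-Nd4l per kb in males and 930, 2307 and 2528 times in females. This ratio rests on 8 to 50 counts of mt-Nd4l per library.

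The nuclear copies themselves had counts. Set against its copy in the same library, mt-Nd4l had 0.778 to 2.50 times the counts of Gm10222, with a median of 1.33. Ratios were 5.48 to 13.7 for mt-Co2 over Gm28661, 6.40 to 16.8 for mt-Co3 over Gm28437 and 8.54 to 14.5 for mt-Nd3 over Gm28438. A second copy of mt-Co2, Gm13341 on chromosome 2, was close in counts, with mt-Co2 at 1.34 to 2.82 times its level. For mt-Atp6 over Gm10925 the ratio was 1.33 in male replicate 2 and 6.00 to 8.12 in the other libraries. Gm10925 had 4235 counts in male replicate 2, or 111 CPM, against 9.72 to 56.4 CPM elsewhere. Where parts of the gene have no exact copy the ratios were far larger, at 1142 to 1880 for mt-Nd4 over Gm28439 and 183 to 265 for mt-Co1 over Gm13340. Reads of the identical stretches cannot be assigned to either gene by sequence, so the values of mt-Co2, mt-Atp6, mt-Co3, mt-Nd3 and mt-Nd4l, and of their copies, are uncertain.

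Apart from mt-Co1, the members moved together in male replicate 1 and female replicate 2, mostly so in male replicate 3, and less in the other libraries. Male replicate 1 had the highest CPM for 12 of the 13 genes, while 24% of all 20420 genes tested had their highest value there. Relative to each gene's own mean on the log2 scale, those 12 genes stood 0.72 to 1.89 above it in male replicate 1, with a median of 1.12. In female replicate 2 all 12 lay below their means, with a median of −0.65, and in male replicate 3 the median was −0.43. In the remaining libraries the medians lay between −0.11 and 0.02, and single genes lay on both sides of their means. They ran from −0.62 to 0.23 in male replicate 2 and from −0.22 to 0.36 in male replicate 4. In female replicate 1 they ran from −0.46 to 1.11, and in female replicate 3 from −0.70 to 0.09. The values of −0.62, 1.11 and −0.70 were those of mt-Nd4l, and mt-Co2 stood at −0.57 in male replicate 2. As a share of the mitochondrial mRNA sum, most members varied less than their CPM did. The coefficient of variation was 5.24% for mt-Cytb, 5.43% for mt-Nd1 and 6.28% for mt-Nd2 as a share, against 47.2%, 46.4% and 44.1% as CPM. As a share mt-Nd6 was not the least variable, at 10.8%, against 27.2% as CPM.

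In mt-Co1, which encodes the catalytic subunit of cytochrome c oxidase, the order of libraries differed. It stood at 2825, 1111, 3159 and 1312 CPM in males and 1367, 3686 and 1643 CPM in females. Male replicate 3 and female replicate 2, where the other members were low, had the highest mt-Co1 values, and the groups overlapped. Of the mitochondrial mRNA sum, mt-Co1 took 4.72%, 3.86%, 13.96% and 5.06% in males and 5.13%, 15.4% and 6.00% in females. With mt-Co2, mt-Atp6, mt-Atp8, mt-Co3 and mt-Nd2 left out of the sum, male replicate 3 and female replicate 2 still stood at 16.4% and 17.7%, and the other 5 libraries at 4.62% to 7.22%.

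Its nuclear copies had a like order of libraries. Gm13340 stood at 13.0, 4.20, 15.5 and 5.66 CPM in males and 7.46, 16.0 and 8.19 CPM in females. Gm29216 stood at 3.27, 1.10, 7.27 and 1.87 CPM in males and 1.85, 6.59 and 5.03 CPM in females. Both copies were highest in male replicate 3 and female replicate 2, and both were less than 1% of mt-Co1. The choroid plexus and ependyma sum was 14360 CPM in male replicate 3 and 48.3 CPM in female replicate 2. Female replicate 2 had the highest GABAergic sum (1797 CPM) and the lowest endothelial sum (33.3 CPM against 61.4 to 103 CPM elsewhere). The sum of 5 astrocyte markers was highest in male replicate 3 (2748 CPM) and female replicate 2 (2871 CPM), against 1477 to 2391 CPM elsewhere. So was that of 2 oligodendrocyte precursor markers, at 107 and 133 CPM against 53.0 to 94.1 CPM. The remaining marker sums did not have both of these libraries highest. The part of these marker differences in the mt-Co1 values was not tested.

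**Figure D3:**
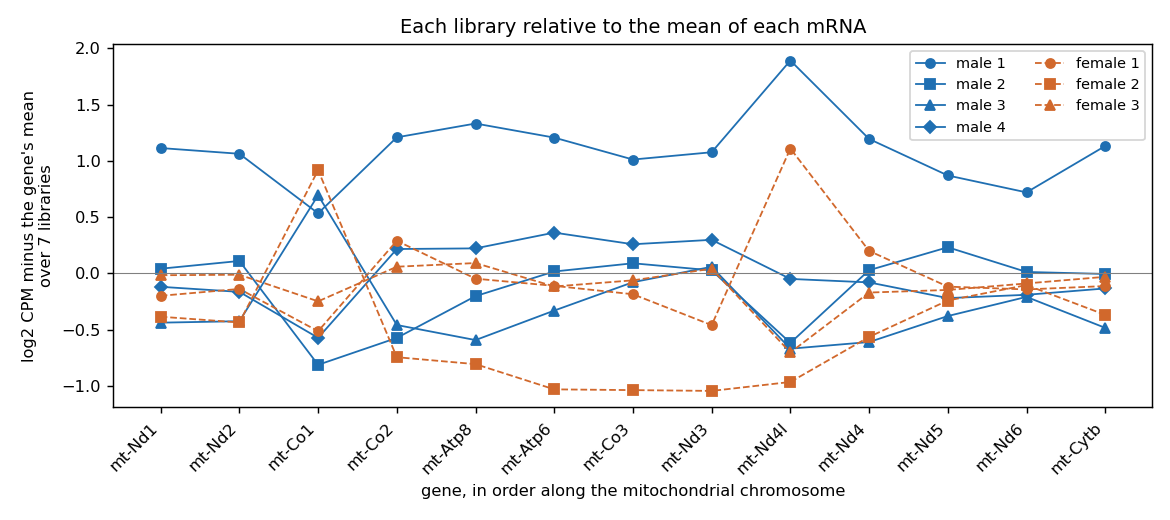
Log2 CPM minus each gene's mean over the 7 libraries for the 13 mitochondrial mRNAs, with 1 line per library (solid for males, dashed for females). Male replicate 1 lies above the mean for all 13 genes. Male replicate 3 and female replicate 2 lie at or below about 0 for the other genes and at 0.70 and 0.92 for mt-Co1.

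The shares of the other members in the mitochondrial mRNA sum differed between libraries to different degrees. Between the lowest and the highest library the share differed 1.13-fold for mt-Nd1 and 1.16-fold for mt-Cytb, 1.88-fold for mt-Atp8 and 1.97-fold to 2.42-fold for mt-Co2, mt-Co3, mt-Nd3 and mt-Atp6. For mt-Nd4l, at 8 to 50 counts, it differed 3.79-fold. The light-strand mRNA mt-Nd6 amounted to 2.82%, 3.62%, 3.96% and 3.48% of the 12 heavy-strand mRNAs in males and 3.51%, 4.03% and 3.54% in females, and the groups overlapped. The 5 members with near-complete nuclear copies together took 1.57%, 1.50%, 1.69% and 2.05% of the mRNA sum in males and 1.49%, 0.905% and 1.53% in females. As single members, mt-Atp6 alone had groups that did not overlap in this share, at 0.565%, 0.515%, 0.515% and 0.726% in males and 0.510%, 0.300% and 0.494% in females. The gap between the lowest male and the highest female was small beside the spread within either group. This share is defined for the members only, so no frequency over all genes can be set beside it. In CPM the groups of mt-Atp6 overlapped, and its values are uncertain because of its copy Gm10925.

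**Figure D4:**
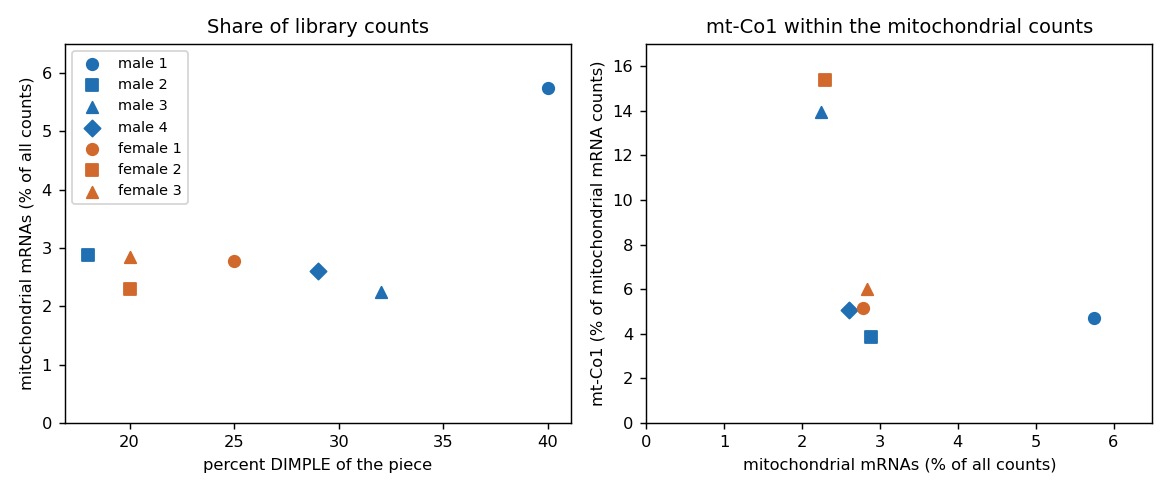
Left, percent of all counts on the 13 mitochondrial mRNAs against percent DIMPLE of the piece. Right, mt-Co1 as a percent of the mitochondrial mRNA counts against the same percent of all counts. Each of the 7 points is a library. Male replicate 1 lies apart on the left at 5.74% and 40% DIMPLE, and male replicate 3 and female replicate 2 lie apart on the right at 13.96% and 15.4%.

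The first comparison asked whether the mitochondrial mRNAs differ between males and females. None of the 13 passed the threshold, a Benjamini-Hochberg adjusted p under 0.05 in edgeR's quasi-likelihood test over all 20420 genes, of which 0.0245% passed (0.0196% higher and 0.0049% lower in males). At an unadjusted p under 0.05, 2 members were higher in males (mt-Nd3 and mt-Co3, both with near-complete nuclear copies), where 2.68% of all genes were. None was lower in males at that level, where 2.03% of all genes were. DESeq2 also called 0 members, where 0.437% of its genes passed, and limma-voom called 0, where 0.0294% passed. At an unadjusted p under 0.05, DESeq2 had 3 members higher in males (mt-Nd3, mt-Co3 and mt-Atp6; 2.71% of its genes) and limma-voom had 2 (2.32% of its genes). The authors' deposited DESeq2 table, whose fold changes run female over male, marks genes at a wider threshold, an adjusted p under 0.1. There 0 of 13 were marked among 28808 genes, of which 0.496% were.

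Point estimates lay mostly above 0. The largest were those of mt-Nd3 (log2 fold change, male over female, 0.85 ± 0.32 SE, edgeR adjusted p 0.899), mt-Atp6 (0.79 ± 0.37) and mt-Co3 (0.75 ± 0.31, adjusted p 0.981). Those of mt-Atp8 (0.59 ± 0.43), mt-Nd1 (0.47 ± 0.34), mt-Nd2 (0.45 ± 0.33), mt-Nd4 (0.44 ± 0.39), mt-Cytb (0.43 ± 0.35) and mt-Nd4l (0.39 ± 0.76) were smaller. The rest were 0.38 ± 0.29 for mt-Nd5, 0.35 ± 0.43 for mt-Co2, 0.25 ± 0.24 for mt-Nd6 and −0.09 ± 0.44 for mt-Co1. The largest estimates, of mt-Nd3, mt-Atp6 and mt-Co3, belong to the 5 members with near-complete nuclear copies, whose values are uncertain. The median was 0.75 in those 5, 0.44 in the 6 with few or no exactly copied windows and 0.18 in the 2 with partial exact copies. In all, 12 of 13 estimates were above 0, against 52.3% of all genes, and their median was 0.44 against 0.01 over all genes. No member had groups that did not overlap in CPM, which was so for 2.54% of all genes with males above and 2.78% with males below. The sum of 2 glutamatergic markers also had groups that did not overlap, at 436, 182, 459 and 838 CPM in males and 83.9, 81.2 and 152 CPM in females, and its part in the estimates was not tested. The estimates depended on male replicate 1: without it the median was 0.04, 7 of 13 were above 0 and 0 had an unadjusted p under 0.05, with mt-Nd3 at 0.56, mt-Co3 at 0.47 and mt-Atp6 at 0.41. Without female replicate 2 the count at an unadjusted p under 0.05 was 0 as well, with a median of 0.34 and 13 of 13 above 0. The median was 0.01, with 8 of 13 above 0, when percent DIMPLE was in the model. It was −0.072 with the males whose columns begin with mb alone and 0.85 with those that begin with mv, names that the labels do not explain. At an unadjusted p under 0.05 in edgeR, 9 members were higher in the mv males, where 272 of 20841 genes were. With the mb males 0 members were, where 1092 of 21151 genes were.

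**Figure D5:**
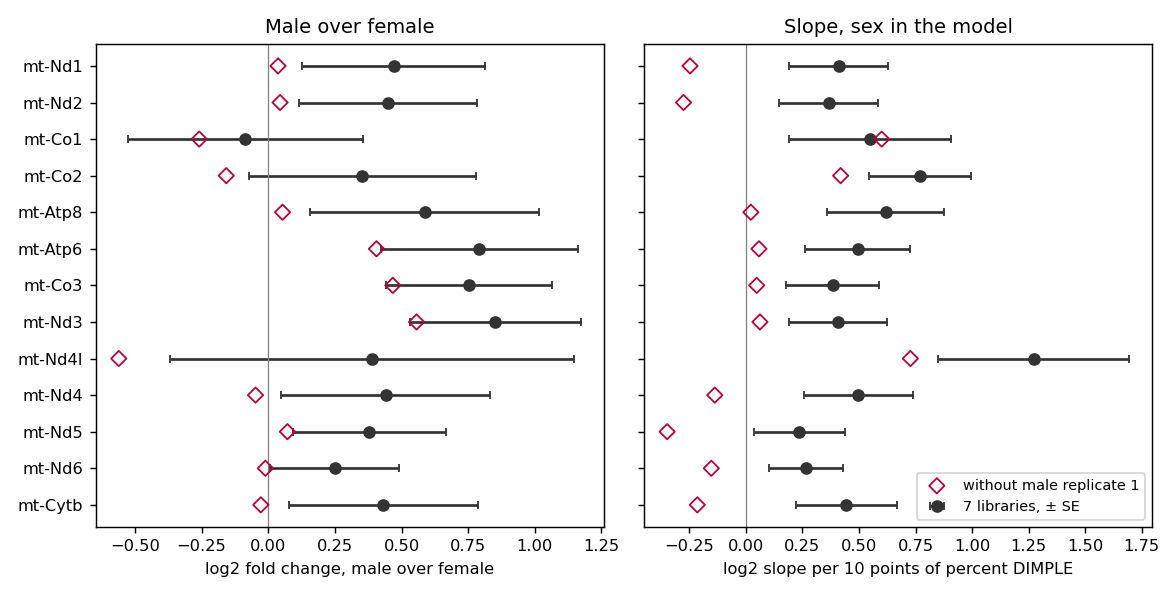
Left, log2 fold change, male over female; right, log2 slope per 10 points of percent DIMPLE with sex in the model, for the 13 mitochondrial mRNAs. Filled points are edgeR estimates over 7 libraries with standard errors, and open diamonds are estimates without male replicate 1. In the left panel the diamonds lie nearer 0 than the filled points for most genes, and in the right panel 6 diamonds lie below 0.

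The second comparison asked whether the mRNAs vary with the share of DIMPLE in the piece, with sex in the model. No member passed the threshold, and neither did any of the 20420 genes (0%). At an unadjusted p under 0.05 the slope was above 0 for 3 members, where 3.33% of all genes had such a slope, and below 0 for none, where 1.21% did. They were mt-Co2, with a log2 slope of 0.77 ± 0.23 (SE) per 10 points, mt-Nd4l, with 1.27 ± 0.42, and mt-Atp8, with 0.62 ± 0.26, each with an edgeR adjusted p of 0.897. Of these, mt-Co2 and mt-Nd4l have a near-complete annotated nuclear copy and uncertain values, and mt-Atp8 has no such annotated copy. DESeq2 and limma-voom called 0 members as well, with 3 members at an unadjusted p under 0.05 in DESeq2 (2.69% of its genes) and 2 in limma-voom (2.5%). The remaining slopes ranged from 0.24 ± 0.20 for mt-Nd5 to 0.55 ± 0.36 for mt-Co1. All 13 slopes were above 0, against 51.6% of all genes, with a median of 0.44 against 0.01 over all genes. The male with 40% DIMPLE was male replicate 1, and without it the median slope was 0.02, 7 of 13 were above 0 and 0 had an unadjusted p under 0.05. Without male replicate 2 the median was 1.01 and 9 members had such a p, and without male replicate 3 the median was 0.48 and 9 had one. With all libraries but sex left out of the model, 10 members had one above 0, where 1194 of 20420 genes did. Without the filter on low counts 9 members had one above 0, where 1328 of 40076 genes did.

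The nuclear-encoded subunits that assemble with these proteins were read in the same fits. Of 76 tested for complexes I to V, 0 were called for sex and 0 for the slope. Their sex estimates had a median of 0.20, with 72 of 76 above 0 (52.3% of all genes), and 0 had an unadjusted p under 0.05. By complex, the median was 0.12 for the 37 nuclear subunits of complex I, 0.05 for the 4 subunits of complex II, 0.25 for the 9 of complex III, 0.34 for the 11 of complex IV and 0.21 for the 15 of complex V. Complex II, the succinate dehydrogenase, is the complex with no mitochondrially encoded subunit. The summed CPM of the 76 genes was 36106, 22095, 22534 and 23303 in males and 24565, 17206 and 24395 in females. Male replicate 1 was highest and female replicate 2 lowest, as for most mitochondrial mRNAs, and the groups overlapped.

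The largest sex estimate among the nuclear subunits was that of Cox6c, a small structural subunit of cytochrome c oxidase, at 1696, 617, 1000 and 917 CPM in males and 826, 317 and 820 CPM in females. Its log2 fold change was 0.69 ± 0.40 (SE). Cox7b, another subunit of that complex, stood at 1127, 394, 542 and 520 CPM in males and 501, 205 and 505 CPM in females (0.68 ± 0.41). In complex I the estimate of lowest p was that of Ndufb2 (0.39 ± 0.35), in complex III that of Uqcrq (0.36 ± 0.24) and in complex V that of Atp5g1 (0.31 ± 0.19). Sdhc and Sdha of complex II had estimates of 0.15 ± 0.15 and −0.11 ± 0.18. Cyc1, cytochrome c1 of complex III, stood at 244, 241, 243 and 250 CPM in males and 207, 198 and 232 CPM in females, with a log2 fold change of 0.20 ± 0.14. Its groups did not overlap, as was so for 2.54% of all genes with males above. None of these had an adjusted p under 0.05 in edgeR.

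For the DIMPLE slope, 64 of the 76 nuclear subunits had estimates above 0, against 51.6% of all genes, with a median of 0.26. Of the 76, 21 had an unadjusted p under 0.05 and all were above 0, where 3.33% of all genes had such a p above 0 and 1.21% below. Those 21 comprised 10 in complex I, 0 in complex II, 3 in complex III, 5 in complex IV and 3 in complex V. Cox6c and Cox7b were among them, with slopes of 0.67 ± 0.23 and 0.68 ± 0.23 (SE) per 10 points. Without male replicate 1, 0 of the 76 had an unadjusted p under 0.05, where 327 of 20325 genes had one above 0 and 177 below, 39 were above 0 and the median was 0.00. For sex, 38 of 76 were then above 0 and the median was −0.00.

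Genes that transcribe, copy and process mitochondrial nucleic acids showed 0 calls in either fit. Of 16 genes of mitochondrial DNA transcription and replication, 12 had sex estimates above 0, with a median of 0.10. Ssbp1, the single-strand DNA-binding protein of mitochondria, stood at 113, 49.5, 47.6 and 46.9 CPM in males and 64.4, 34.3 and 63.9 CPM in females (log2 fold change 0.24 ± 0.35 SE). The transcription elongation factor gene Tefm (0.16 ± 0.20) and the termination factor family gene Mterf1b (0.38 ± 0.37) also had groups that overlapped. Of 20 genes of mitochondrial RNA processing and decay, 13 were above 0, with a median of 0.05. Pnpt1, a polynucleotide phosphorylase of mitochondria, had 0.29 ± 0.18, Hsd17b10, a subunit of the mitochondrial ribonuclease P, had 0.26 ± 0.18, and Fastkd3 had 0.24 ± 0.18. Among 5 regulators of mitochondrial biogenesis 3 were above 0, with a median of 0.22. They were Ppargc1a, a transcriptional coactivator, at 0.22 ± 0.19, Gabpa at 0.31 ± 0.23 and Esrra at 0.27 ± 0.24, while Ppargc1b was at −0.26 and Nrf1 at −0.19.

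Among 10 genes listed as nuclear copies of mitochondrial genes 0 were called, and the median sex estimate was 0.01 with 5 above 0. Gm10925, the copy of mt-Atp6, had a log2 fold change of 1.52 ± 0.62 (SE, edgeR adjusted p 0.971), in which male replicate 2 stood highest as described above. Gm28438, the copy of mt-Nd3, had 0.79 ± 0.45. Gm15564, a listed gene that matched no member in the search, stood at 247, 202, 241 and 233 CPM in males and 254, 265 and 382 CPM in females (−0.38 ± 0.18). Its groups did not overlap, as was so for 2.78% of all genes with males below. For the DIMPLE slope 9 of the 10 were above 0 (51.6% of all genes), with a median of 0.67, and 3 had an unadjusted p under 0.05 above 0 (3.33% of all genes). Without male replicate 1 the median sex estimate of the copies was −0.39 with 2 above 0, and the median slope was 0.15 with 7 above 0.

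Nuclear-retained RNAs were read as a sign of RNA quality and of the balance of nuclear and cytoplasmic RNA. Malat1, a nuclear long noncoding RNA, stood at 513, 416, 408 and 354 CPM in males and 391, 361 and 448 CPM in females. Male replicate 1, the library with the highest mitochondrial share, was the highest for Malat1 but not for Meg3, Snhg11 or Neat1. Meg3 stood at 1284, 1144, 701 and 1035 CPM in males and 1470, 694 and 1182 CPM in females. Snhg11, a noncoding host gene, stood at 981, 921, 712 and 717 CPM in males and 1150, 930 and 1320 CPM in females (−0.44 ± 0.20, edgeR unadjusted p 0.0463). Neat1 had an estimate of 0.90 ± 0.54, with its highest value of 36.6 CPM in male replicate 3 and 7.68 CPM in male replicate 1. The summed CPM of the 4 RNAs was highest in female replicate 1, at 3019, with male replicate 1 at 2786. None of the 4 RNAs of this list was called, and their part in the mitochondrial values was not tested.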

How the data were processed

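The table the authors deposited gives whole-number raw counts for every library. It also holds a normalized signal (counts over size factors), log2 fold changes with standard errors, test statistic scores, p-values and adjusted p-values of female over male, per the file headers. The submitters' processing notes name the build GRCm39 and the tools HTSeq 2.0.1, TopHat2 2.2.1, DESeq2 1.26.0 and cutadapt. Strand setting, treatment of multiply matching reads and annotation release are not given in the sources used here. Male columns were matched to samples through the column letters in the labels.

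Low genes were removed by filterByExpr with a minimum count of 10 and a minimum total of 15. After TMM scaling, edgeR 4.0.16 in R 4.3.3 was used with robust quasi-likelihood fits and Benjamini-Hochberg adjustment over 20420 genes. CPM are counts over TMM-scaled library sizes, and fold changes are male over female. Slopes had sex in the model. Alternatives were other scalings and filters, DESeq2 1.42.0, limma-voom (limma 3.58.1), covariates, a replicate block, subsets of males and leaving out each library. Nuclear copies were sought in annotated GENCODE M21 transcripts (GRCm38) with blastn 2.17.0 and 50-base windows, exact or with up to 2 mismatches. Unannotated copies were not searched.

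The members and lists were chosen with earlier results of these data known. Every protein-coding member is named, and from each list up to 3 genes of lowest p in the male over female fit; other genes were named after their values were seen. Libraries within a group differed by more than sampling noise (chi-square over degrees of freedom at least 47.2). The fits were tested on simulated data. Shares and sums over members have no test.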

Additional observations from a re-analysis of the deposited data

Results flagged for a closer look

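In male replicate 3, mt-Co1 made up 13.96% of the mitochondrial mRNA counts, against 3.86%, 4.72% and 5.06% in the other males. Its gap to the nearest male was 0.881 of the range of the males, above Dixon's 95% critical value for a group of that size. In male replicate 1, mt-Nd4l stood at 1.795 CPM, against 0.304, 0.315 and 0.467 CPM in the other males, a gap of 0.890 of their range. That value rests on 50 counts, and female replicate 1 had 48 counts. Of 31 values tested in this way, 2 were beyond the limit, and chance puts about 1 in 20 there. The cause of either was not tested.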

How the results depend on the processing

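No mitochondrial mRNA was called for sex or for the slope under any alternative run, thresholds of 0.1 included. Whether the labels' replicate numbers pair the animals could not be decided from the values. Correlations of same-numbered deviations were 0.589, 0.326 and −0.228, and those of differing numbers ran from −0.77 to 0.60. With the replicate block 0 members were called, the median log2 fold change was 0.42 and that of mt-Co1 was 0.15, and 27 of all genes were called, against 5 without it. With the males of the mb columns alone the median was −0.072, and estimates were below 0 for mt-Nd1 (−0.072), mt-Nd2 (−0.10), mt-Co2 (−0.0088), mt-Nd4l (−0.47), mt-Nd4 (−0.17), mt-Nd5 (−0.12), mt-Nd6 (−0.082) and mt-Cytb (−0.13), while mt-Co1 was at 0.0072. With those of the mv columns, which include male replicate 1, it was 0.85. With percent DIMPLE in the model mt-Co2 (−0.38), mt-Atp8 (−0.0087), mt-Nd4l (−0.79), mt-Nd4 (−0.0031) and, as without it, mt-Co1 (−0.66) were below 0. The labels do not explain mb and mv, and the cause was not tested.

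Leaving out each library in turn, the median sex estimate ran from 0.037 to 0.63 and the median slope from 0.022 (without male replicate 1) to 1.01 (without male replicate 2). The difference in mitochondrial share, male minus female, was 0.73 percentage points and ran from −0.060 to 1.11. That in the mt-Co1 share ran from −4.30 to 1.33, and that in mt-Nd6 over heavy-strand mRNAs from −0.39 to −0.0070. Single sex estimates ran from −0.37 to 0.48 for mt-Co1, −0.16 to 0.57 for mt-Co2, −0.56 to 1.35 for mt-Nd4l, −0.048 to 0.65 for mt-Nd4, −0.011 to 0.34 for mt-Nd6 and −0.028 to 0.60 for mt-Cytb. Slopes ran from −0.25 to 1.01 for mt-Nd1, −0.28 to 1.02 for mt-Nd2, −0.14 to 1.27 for mt-Nd4, −0.35 to 0.90 for mt-Nd5, −0.15 to 0.68 for mt-Nd6 and −0.21 to 1.07 for mt-Cytb. Of single estimates, 212 kept their sign and side for sex and 22 changed sign, and for the slope 189 and 6 did. Planned shares of rRNA and tRNA could not be computed, since those genes carry no values in the table. Depth limits only mt-Nd4l, at 8 to 50 counts.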
